A study of Mus musculus with 8 samples.

Results

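Imprinted genes that regulate growth, 10 in number, were followed through 8 mouse libraries, out of the 23389 gene symbols in the deposited tables. They were chosen by name, from a list of known imprinted growth genes. Grb10, H19, Igf2r, Cdkn1c and Phlda2 are expressed mainly from the maternal allele in most tissues, and Igf2, Peg3, Mest, Peg10 and Plagl1 mainly from the paternal allele. All 10 are listed in every table and passed the filter on low values. The libraries come from 4 groups of 2. The 3F+IL6 group holds induced pluripotent stem (iPS) clones made from embryonic fibroblasts with Oct4, Klf4 and Sox2 and treated with IL6 at 10 ng/mL. The 4F group holds iPS clones made with 4 factors, which the labels do not list, and without the IL6 label, so factor set and IL6 change together between the kinds of clone. The ES group is the D3 GFP embryonic stem cell line, and the MEF group is mouse embryonic fibroblasts. The ES cells are 129S2/SvPas and the other samples BALB/c, so strain changes together with cell type in every comparison with ES cells. Each iPS library is a single clone, derived separately, and the ES group is a single line. The submitters call the ES and MEF libraries biological replicates without saying what separates them, so p-values measure the spread between these libraries, which may be partly technical.

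Imprinted genes carry a methylation mark set in the egg or the sperm at a control region, and the mark lets 1 parental allele be transcribed while the other stays silent. Many of them act on fetal and placental growth. As a rule paternally expressed genes such as the growth factor gene Igf2 favour growth, and maternally expressed genes restrain it. Among the latter are Igf2r, the gene of a receptor that clears IGF2, the adaptor Grb10 and the cell cycle inhibitor Cdkn1c. Pluripotent cells in culture can gain or lose these marks, which is why imprinted genes are often followed in ES cells and iPS clones. The deposited values sum both alleles, so they show the amount of RNA and not which parental copy gave it.

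Levels are in RPKM, a read number divided by the length of the gene and by the size of the library, at an estimated 11700000 to 17940000 reads per library. Differences are of log2(RPKM + 1), a scale that understates changes of low genes, and "called", "higher", "lower", "rose" and "fell" mean an adjusted p under 0.05 in limma over 13200 genes. Pluripotency markers marked the ES and iPS libraries, with the 8 markers summing to 4970 to 6110 RPKM there and 6.81 and 8.51 in MEF. The 10 fibroblast markers summed to 2970 and 2960 RPKM in MEF and 5.58 and 5.49 in ES cells. In the clones they summed to 143 and 225 (3F+IL6 clones 1 and 2) and 142 and 123 (4F clones 1 and 2), with 0 of the 10 at 0. Relative to its MEF level, the median marker stood at 7.02% and 10.3% in 3F+IL6, at 6.79% and 5.9% in 4F clones, and at 0.137% and 0.107% in ES cells. The markers were uneven in this: in 3F+IL6 clone 2 they ran from 3.11% to 268% of the MEF level. In libraries of whole cultures, fewer cells of a type and less RNA per cell cannot be told apart. The 3F+IL6 clones also differed more from each other than the other pairs, and array weights gave them 0.224, against 0.774 for 4F, 2.16 for ES and 2.67 for MEF libraries.

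Promoter windows of 4 members are shown because these genes show different patterns below: Grb10 is highest in MEF, Phlda2 highest in the clones, Mest high in pluripotent samples, and Plagl1 lowest in the clones. The windows are RefSeq sequence of GRCm38.p6, 250 bases before to 50 bases after a start site, read 5′ to 3′ on the strand of the gene; where a gene has several, the window with the most CpG dinucleotides was taken. RefSeq windows matched 7 of the 10 genes; H19, Cdkn1c and Peg10 had none in the table. Capitals mark the hexamer TGCCGC or its reverse complement GCGGCA, the core that the imprint-keeping protein ZFP57 recognises when it is methylated. The Grb10 window (chr11:12037371-12037670, minus strand) holds 45 CpG and 1 match, the Mest window (chr6:30737800-30738099, plus strand) 17 CpG and 2 matches, the Plagl1 window (chr10:13090582-13090881, plus strand) 26 CpG and 1 match, and the Phlda2 window (chr7:143502475-143502774, minus strand) 26 CpG and 0 matches. Igf2, Igf2r and Peg3 had 0 matches in theirs.
Grb10: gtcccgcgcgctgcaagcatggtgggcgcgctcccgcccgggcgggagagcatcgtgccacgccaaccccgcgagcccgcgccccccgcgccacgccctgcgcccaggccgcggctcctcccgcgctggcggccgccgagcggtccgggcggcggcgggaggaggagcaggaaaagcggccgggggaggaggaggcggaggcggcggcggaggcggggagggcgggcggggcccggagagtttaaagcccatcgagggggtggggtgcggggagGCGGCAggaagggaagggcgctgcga
Mest: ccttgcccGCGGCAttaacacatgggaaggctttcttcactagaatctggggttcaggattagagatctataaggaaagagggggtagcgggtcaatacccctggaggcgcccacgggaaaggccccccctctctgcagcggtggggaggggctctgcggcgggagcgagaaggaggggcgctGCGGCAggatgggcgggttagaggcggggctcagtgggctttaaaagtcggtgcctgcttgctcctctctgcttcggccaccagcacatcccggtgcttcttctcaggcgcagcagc
Plagl1: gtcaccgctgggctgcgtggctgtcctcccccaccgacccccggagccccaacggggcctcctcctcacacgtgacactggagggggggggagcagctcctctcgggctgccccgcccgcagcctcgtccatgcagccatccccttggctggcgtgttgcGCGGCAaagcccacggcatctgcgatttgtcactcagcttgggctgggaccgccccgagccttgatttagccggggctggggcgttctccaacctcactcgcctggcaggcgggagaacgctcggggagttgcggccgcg
Phlda2: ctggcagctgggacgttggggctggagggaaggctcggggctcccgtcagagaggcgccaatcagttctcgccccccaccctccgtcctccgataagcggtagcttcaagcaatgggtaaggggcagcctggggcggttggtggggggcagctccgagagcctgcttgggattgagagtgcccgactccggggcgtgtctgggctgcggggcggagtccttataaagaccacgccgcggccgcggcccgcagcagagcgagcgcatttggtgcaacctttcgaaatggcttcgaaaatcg
Of 27025 genes with such a window, 12.2% hold the hexamer on either strand, and the median window has 8 CpG. A match is a run of letters and says nothing of binding or methylation in these samples. The windows lie at start sites and were not chosen as imprint control regions, so 0 matches says nothing of sequence outside them.

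Grb10, Cdkn1c, Phlda2 and H19, which are maternally expressed, were higher in both kinds of clone than in ES cells. Grb10 (chromosome 11, 11930508 to 12038683, minus strand) encodes an adaptor that binds the insulin and IGF1 receptors and dampens their signal. It was at 2.57 and 2.34 RPKM in the ES libraries, 25 and 36.8 in 3F+IL6 clones 1 and 2, 14.4 and 13.8 in 4F, and 132 in each MEF library. The 4 groups did not overlap and stood in the order ES, 4F, 3F+IL6, MEF. Against ES cells Grb10 was 12.6 times as high in 3F+IL6 and 5.73 times in 4F clones, log2 differences of 3.18 (SE 0.16; limma adjusted p = 1.1e-05) and 2.13 (SE 0.16; limma adjusted p = 4.8e-05). Relative to MEF, Grb10 stood at 19% and 27.9% in 3F+IL6 and at 10.9% and 10.5% in 4F clones. That was above the median fibroblast marker of the same library in each, but within the range of the markers. The highest marker stood at 141% and 268% in 3F+IL6 and at 88.9% and 78.5% in 4F clones. With the median share of the MEF level subtracted, the log2 differences from ES cells were 2.61 and 1.03, and both were still called.

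Cdkn1c and Phlda2 lie 43206 bases apart, by their lower ends, in the imprinted cluster of chromosome 7 that the non-coding RNA Kcnq1ot1 silences on the paternal chromosome. Cdkn1c (143458339 to 143461050, minus strand) encodes the cyclin-dependent kinase inhibitor p57. Its levels were 1.04 and 0.789 RPKM in ES cells, 14 and 11 in 3F+IL6, 11 and 8.26 in 4F, and 7.01 and 7.08 in MEF. ES cells stood alone at the low end, and all 4 clones were above both MEF libraries. The differences from ES cells were 2.81 (SE 0.16) for 3F+IL6 and 2.46 (SE 0.16) for 4F clones, ratios of 13.6 and 10.5. The ES values rest on few reads, about 31 and 22 by the estimated depth and the longest transcript.

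Phlda2 (143501545 to 143503150, minus strand) encodes a small pleckstrin-homology protein that limits placental growth. It was at 22.4 and 22 RPKM in ES cells, 80.1 and 62.8 in 3F+IL6, and 63.2 and 50.4 in 4F clones. In MEF it was listed at 0 in library 1 and at 0.233 in library 2, about 3 reads. The gene was therefore near the floor in fibroblasts, and no fold is given against them. The clones were 3.22 times (3F+IL6) and 2.56 times (4F) as high as ES cells, log2 differences of 1.63 (SE 0.16; limma adjusted p = 1.7e-04) and 1.31 (SE 0.16; limma adjusted p = 4.0e-04). With Phlda2 at or near 0 in MEF, subtracting the median fibroblast share left these differences at 1.63 and 1.31. For Cdkn1c the same step left 2.75 and 2.41.

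**Figure D1:**
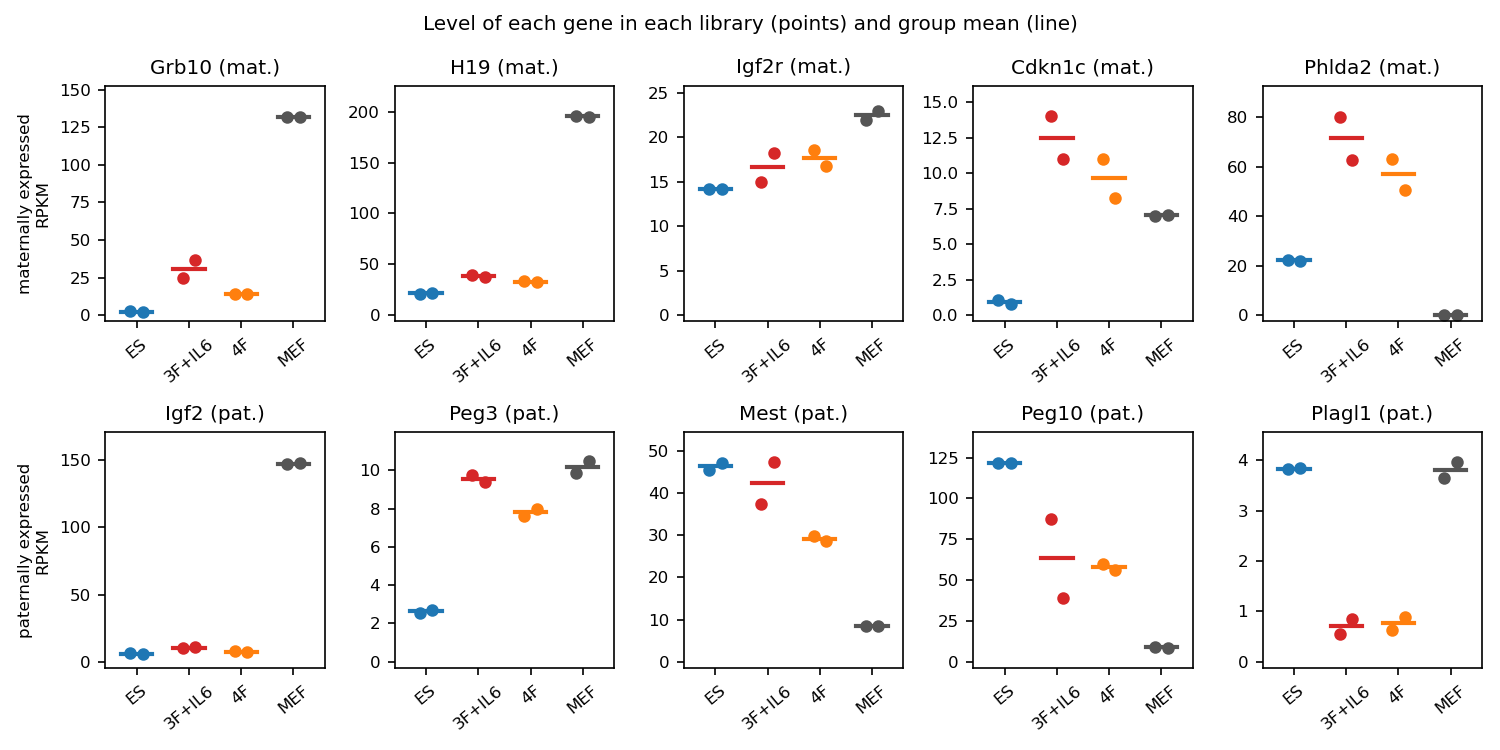
Level of each of the 10 genes in RPKM (vertical axis, linear, separate for each gene) in every library (points) of the 4 groups (horizontal axis), with the group mean as a line; the upper row holds maternally and the lower row paternally expressed genes. Grb10, H19 and Igf2 are highest in MEF, Phlda2 and Cdkn1c highest in the clones, Peg10 highest in ES cells, and Plagl1 lowest in the clones.

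H19 and Igf2 are the reciprocal pair of chromosome 7: they share enhancers, H19 is a maternally expressed non-coding RNA and Igf2 the paternally expressed growth factor. H19 (142575529 to 142578143, minus strand) was at 21 and 22 RPKM in ES cells, 39.4 and 38 in 3F+IL6, 33.4 and 32.2 in 4F and 196 and 195 in MEF. Igf2 (142650766 to 142666816, minus strand) was at 6.27 and 5.84 RPKM in ES cells, 9.86 and 11.1 in 3F+IL6, 8.25 and 6.88 in 4F and 147 and 148 in MEF. Both genes thus had the same order of groups, with no overlap: ES, 4F, 3F+IL6, MEF. H19 rose against ES cells by 0.82 in 3F+IL6 and 0.59 in 4F clones (SE 0.05 in each), and Igf2 by 0.70 and 0.28 (SE 0.10 in each; limma adjusted p = 7.6e-04 and 0.038).

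The fibroblast markers were higher beside both genes, and all 10 were called in each kind of clone. Igf2 stood at 6.68% and 7.51% of its MEF level in 3F+IL6 and at 5.59% and 4.67% in 4F clones, below the median fibroblast marker of the same library in all 4, and at 4.25% and 3.96% in ES cells, where the markers were near 0.1%. Subtracting the median share left Igf2 at 0 in all 4 clones and the differences at −2.78 in each kind. Subtracting only the lowest marker's share, an alternative chosen after seeing the data, left 6.69 and 6.49 RPKM in 3F+IL6 and 5.44 and 4.01 in 4F, differences from ES cells of 0.12 (limma adjusted p = 0.41) and −0.30 (limma adjusted p = 0.055). For H19 the median share took the differences to 0.01 and −0.06 (limma adjusted p = 0.96 and 0.75), and the lowest share to 0.62 and 0.42, both called. The Igf2 call in 4F clones was also lost with no filter, with quantile normalization, with the replicate number as a block (0.28; limma adjusted p = 0.051), in a fit limited to the ES and 4F libraries, and without ES 1 (0.32), ES 2 (0.23), 4F clone 1 (0.16) or either MEF library (0.28). An overlapping antisense gene, Igf2os, shares part of the Igf2 span, and whether the counting used strand is not given in the sources used here.

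**Figure D2:**
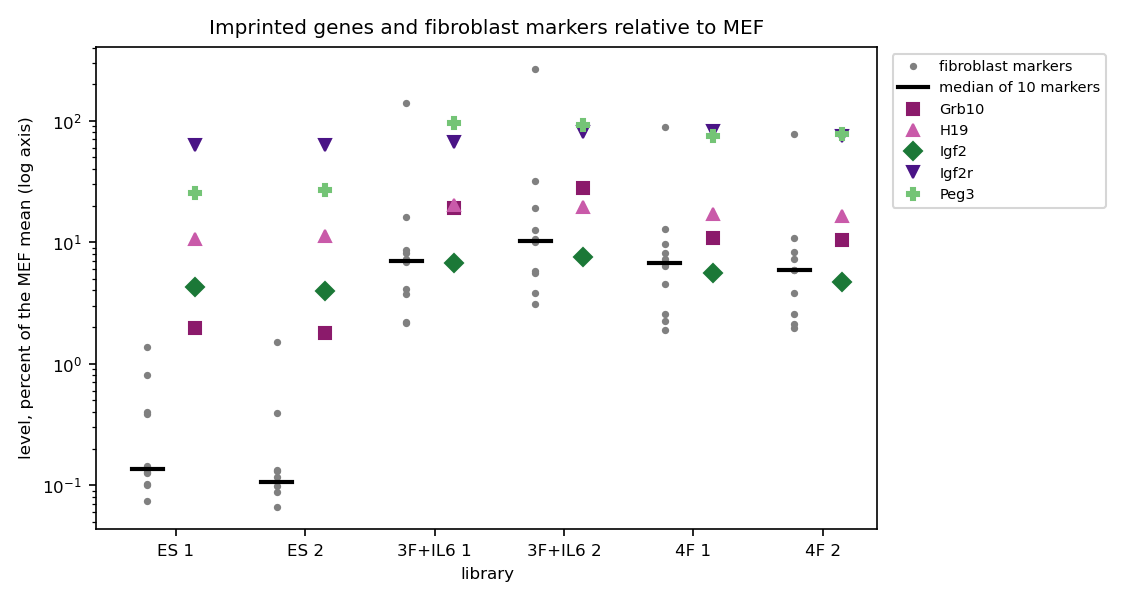
Level of 5 imprinted genes (coloured symbols) and 10 fibroblast markers (grey points, median as a black line) in each ES and iPS library, as a percent of the mean MEF level on a log axis; the markers at 0 in ES 2 are not drawn. In the 4 clones Igf2 sits just under the marker median, at 4.67% to 7.51%, while Grb10, H19, Igf2r and Peg3 sit above it.

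Igf2r (chromosome 17, 12682406 to 12769664, minus strand), the receptor that clears IGF2, varied least. It was at 14.2 in each ES library, 15 and 18.3 in 3F+IL6, 18.6 and 16.8 in 4F, and 22 and 23 RPKM in MEF. The 2 kinds of clone overlapped. ES cells were lowest and MEF highest, without overlap. The difference from ES cells was 0.30 for 4F (SE 0.10; limma adjusted p = 0.033) and 0.21 for 3F+IL6 (95% interval −0.03 to 0.45; limma adjusted p = 0.11), and 0.35 and called without 3F+IL6 clone 1. The 4F call was lost with the median fibroblast share subtracted (0.19) and without ES 1 (0.30), ES 2 (0.30), 4F clone 1 (0.23) or either MEF library (0.30). The antisense non-coding RNA gene Airn overlaps Igf2r and was at 0.0611 to 0.832 RPKM in all 8 libraries.

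The paternally expressed genes had no common direction in the clones. Peg3 (chromosome 7, 6703892 to 6730431, minus strand), a zinc finger protein gene, was at 2.56 and 2.72 RPKM in ES cells, 9.75 and 9.38 in 3F+IL6, 7.63 and 7.99 in 4F, and 9.85 and 10.5 in MEF. Both kinds of clone stood close to MEF and apart from ES cells, by 1.54 (3F+IL6) and 1.27 (4F), SE 0.08 in each. The difference from MEF was −0.08 in 3F+IL6 (95% interval −0.27 to 0.10), not called, and −0.34 in 4F. With Peg3 in the clones at 74.9% to 95.7% of MEF and fibroblast marker medians at 5.9% to 10.3%, subtraction of the latter left rises of 1.41 and 1.17. The 3F+IL6 difference from MEF was called with quantile normalization and with that subtraction (−0.21 in each), and the 4F one was lost without MEF 2 (−0.30).

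Plagl1 (chromosome 10, 13060504 to 13131694, plus strand), a zinc finger gene known to act on other imprinted genes, was the only member whose ES and MEF levels overlapped. It was at 3.82 and 3.84 RPKM in ES cells and 3.65 and 3.97 in MEF, but at 0.557 and 0.851 in 3F+IL6 and 0.632 and 0.891 in 4F clones. All 4 clones lay below all 4 reference libraries, while the 2 kinds of clone overlapped. The differences from ES cells were −1.51 (3F+IL6) and −1.46 (4F), and from MEF −1.50 and −1.45, SE 0.12 in each. ES cells were 5.44 and 5.03 times as high as the clones. The clone values rest on about 39 to 63 reads each. With the median fibroblast share subtracted, 0.289 to 0.665 RPKM remained.

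Peg10 and Mest were highest in pluripotent cells. Peg10 (chromosome 6, 4747306 to 4760517, plus strand), a gene derived from a retrotransposon and needed for the placenta, was at 122 RPKM in each ES library, 87.4 and 39.3 in 3F+IL6 clones 1 and 2, 59.6 and 55.9 in 4F and 8.91 and 8.7 in MEF. The clones lay between ES cells and MEF, and the 3F+IL6 clones enclosed both 4F clones. The fall against ES cells was −1.04 in 3F+IL6 and −1.07 in 4F (SE 0.31 in each; limma adjusted p = 0.022 and 0.019). The 3F+IL6 value rested on the clone taken: it was −1.61 without clone 1 and −0.47 without clone 2, called in both. The 3F+IL6 call was lost in a fit limited to the 3F+IL6 and ES libraries and when ES 1 or ES 2 was left out (−1.04 in each). The 4F call was lost without ES 1 (−1.06), ES 2 (−1.07), 4F clone 1 (−1.11) or 4F clone 2 (−1.02). The 4F call held in a fit limited to the ES and 4F libraries and with array weights. The SE of 0.31 pools all groups, and the 3F+IL6 pair, absent from the 4F comparison, had the widest standard deviation (34.1 RPKM). That of the 4F pair was 2.59 and that of the ES pair 0.155.

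Mest (chromosome 6, 30723547 to 30748465, plus strand), a gene of a hydrolase-like membrane protein and a marker of mesoderm, was at 45.5 and 47.2 RPKM in ES cells, 37.4 and 47.5 in 3F+IL6, 29.8 and 28.6 in 4F and 8.36 and 8.43 in MEF. The 3F+IL6 clones overlapped ES cells and the 4F clones lay below both. 4F fell against ES cells by 0.65 on the log2 scale (SE 0.11; limma adjusted p = 0.0014). For 3F+IL6 the difference was −0.13 (95% interval −0.38 to 0.12; limma adjusted p = 0.3), and it was −0.30 and called without clone 2. Mest overlaps Copg2 on the opposite strand.

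Counted together, 8 of the 10 genes were called between 3F+IL6 clones and ES cells, 6 higher and 2 lower, where 63.4% of all genes tested were called (33.1% higher, 30.3% lower). Between 4F clones and ES cells all 10 were called, 7 higher and 3 lower, against 67.2% of all genes (33.7% higher, 33.5% lower). With most genes called, totals either way of this size lie not far from the background. The counts higher lay above their background share, and whether they differ from it was not tested. With the median fibroblast share subtracted, the members gave 4 higher and 3 lower in 3F+IL6 and 4 higher and 4 lower in 4F clones, and all genes gave 3394 higher and 5203 lower, and 3672 higher and 5257 lower. The 5 maternally expressed genes gave 4 higher and 0 lower in 3F+IL6, and 5 higher and 0 lower in 4F. With that subtraction they gave 3 higher (Grb10, Cdkn1c and Phlda2) and 0 lower in each. The 5 paternally expressed genes gave 2 higher and 2 lower in 3F+IL6 and 2 higher and 3 lower in 4F, and 1 higher with 3 and 4 lower after subtraction. The lower counts after subtraction, of all members and of paternally expressed genes, include Igf2, which that step left at 0 in the clones by construction. With the lowest marker share subtracted instead, Igf2 was not called in either kind of clone. Median differences from ES cells were 1.63 and 1.31 for the maternally expressed genes, −0.13 and −0.65 for the paternally expressed genes, and 0.01 and 0.00 over all genes. The comparisons with ES cells share the ES libraries. Calls that held in each of 19 alternative settings that kept the gene were those of Grb10, Cdkn1c, Phlda2, Peg3 and Plagl1 for both kinds of clone, and of Mest for 4F.

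**Figure D3:**
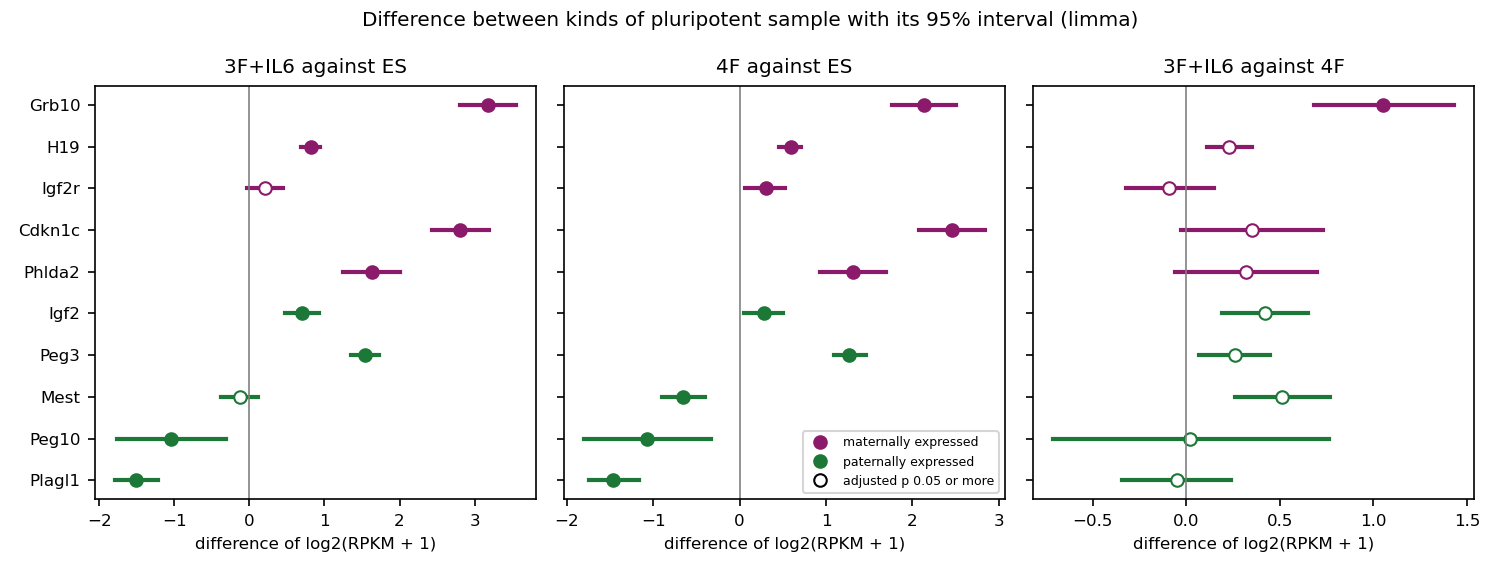
Difference of log2(RPKM + 1) with its 95% interval (horizontal axis, a separate range in the third panel) for the 10 genes (vertical axis; purple maternally, green paternally expressed) in 3 comparisons; filled points passed an adjusted p of 0.05. Grb10, Cdkn1c and Phlda2 lie from 1.31 to 3.18 above ES cells in both kinds of clone, and Grb10 alone is filled between the kinds of clone.

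Between the 2 kinds of clone the members had a median difference of 0.29, where all genes had 0.03. limma called 1 of 10, Grb10, where 1.34% of all genes were called (0.773% higher, 0.568% lower). 3F+IL6 clones were at 25 and 36.8 RPKM and 4F clones at 14.4 and 13.8, without overlap, a ratio of 2.19 and a log2 difference of 1.05 (SE 0.16, 95% interval 0.68 to 1.43; limma adjusted p = 0.04). The call did not hold in 11 of the 19 alternatives, while the direction was the same in each and the value ran from 0.79 to 1.58. limma gave adjusted p = 0.36 in a fit limited to the 4 clones, 0.13 with array weights, 0.052 with a pseudocount of 0.1 and 0.059 with no filter. With the replicate number as a block it gave 0.065, and 0.11 to 0.18 when 1 library of ES, 4F or MEF was left out. Fibroblast markers were also highest in 3F+IL6 clone 2, the clone with the most Grb10. With their median share subtracted the Grb10 difference was 1.58 (limma adjusted p = 0.02), and 15.8 and 23.2 RPKM remained in 3F+IL6 against 5.45 and 6.01 in 4F.

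The other 9 members were not called between the kinds of clone. H19 (0.23; 95% interval 0.11 to 0.35), Igf2 (0.42; 0.19 to 0.65), Peg3 (0.26; 0.07 to 0.45) and Mest (0.51; 0.26 to 0.77) did not overlap between the groups, with limma adjusted p = 0.075, 0.076, 0.12 and 0.065. With Grb10, 5 of the 10 members did not overlap, where 46.7% of all genes did not, and 5 had an unadjusted p under 0.05, where 24.2% of all genes had. Igf2r (−0.09), Cdkn1c (0.35), Phlda2 (0.32), Peg10 (0.02) and Plagl1 (−0.05) overlapped. For Peg10 the interval ran from −0.71 to 0.76, so a change of less than that could not be seen, and the value turned to −0.54 without 3F+IL6 clone 1 and was 0.59 without clone 2. Without 3F+IL6 clone 1 the differences were 1.32 for Grb10, 0.21 for H19, 0.50 for Igf2 and 0.68 for Mest. Without clone 2 they were 0.79 for Grb10, 0.26 for H19 and 0.35 for Mest. In those fits a single 3F+IL6 clone was assumed to vary like the other groups.

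Against MEF, both parental classes held genes that were higher and genes that were lower. limma called 9 of 10 in ES cells, 9 in 3F+IL6 and 9 in 4F clones, where 81.7% (49.7% higher, 32.0% lower), 82.1% (49.4% and 32.6%) and 83.6% (49.2% and 34.4%) of all genes were called, so these counts are near the background. The 3 comparisons share the MEF libraries. Grb10, H19, Igf2 and Igf2r were lower in all 3 kinds of pluripotent sample, and Phlda2, Mest and Peg10 higher. In ES cells the differences were −5.26 for Grb10, −4.40 for Igf2, −3.13 for H19, 3.65 for Peg10 and 2.33 for Mest. For Phlda2, at the floor in MEF, the size of the difference is set by the pseudocount and is not given. MEF held 53.6 times the Grb10 level of ES cells, 24.4 times the Igf2 level and 9.09 times the H19 level. All genes together had a median difference of 0.27 in ES cells, 0.26 in 3F+IL6 and 0.25 in 4F clones, and 0.15, 0.06 and 0.09 with quantile normalization, so differences near those sizes cannot be read as changes. The Igf2r differences, −0.63, −0.42 and −0.33 in ES, 3F+IL6 and 4F, were opposite in sign to that shift. The 4F call was lost without 4F clone 2 (−0.26), MEF 1 (−0.36) or MEF 2 (−0.30). Cdkn1c was lower in ES cells (−2.07) and higher in 3F+IL6 (0.74); in 4F it was at 0.39 (limma adjusted p = 0.054), called in 6 of the 19 alternatives, among them the replicate block (limma adjusted p = 0.02). It was 0.58 and called without 4F clone 2, and 0.20 and not called without 4F clone 1.

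Genes beside the members in their imprinted clusters did not all move with them. Of 29 such neighbours, 28 were in the tables and 15 passed the filter. Against ES cells 5 were higher and 7 lower in 3F+IL6, and 5 higher and 8 lower in 4F clones, where 63.4% and 67.2% of all genes were called, in near equal parts each way. Beside Grb10, the decarboxylase gene Ddc fell from 12.5 and 12.3 RPKM in ES cells to 2.36 to 2.74 in the 4 clones, and Cobl, an actin nucleator gene, from 39.6 and 40.3 to 6.97 to 9.43. Their log2 differences were −1.89 and −2.23 in 3F+IL6 and −1.94 and −2.06 in 4F, opposite in sign to that of Grb10 between them. Both were lower still in MEF, Ddc at 0.527 and 0.787 and Cobl at 1.28 and 1.52, where Grb10 was highest.

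In the Kcnq1ot1 cluster the neighbours Ascl2 and Slc22a18 rose with Cdkn1c and Phlda2, while other neighbours fell. Ascl2, a transcription factor gene of the placenta, was at 0.316 and 0.332 RPKM in ES cells, 9.01 and 6.42 in 3F+IL6, 10.2 and 9.36 in 4F and 0.0349 and 0.0684 in MEF (differences from ES cells of 2.70 and 3.02). The transporter gene Slc22a18 was at 1.12 and 1.13 in ES cells, 2.48 and 3.42 in 3F+IL6, 2.86 and 2.64 in 4F, and 0.292 and 0.214 in MEF (0.89 and 0.82). Kcnq1ot1 itself, the paternally expressed RNA of the cluster, fell from 2.56 and 2.68 RPKM in ES cells to 0.857 and 1.53 in 3F+IL6 and 0.76 and 1.02 in 4F clones (−0.74 and −0.94). It overlaps Kcnq1 on the opposite strand, and its annotation of 93092 bases makes its RPKM depend on the gene model used. Between Ascl2 and Kcnq1ot1, the tetraspanin gene Cd81 rose (0.70 and 0.78) and Tspan32 (−1.17 and −1.09) and Tssc4 (−0.51 and −0.77) fell. Beyond Phlda2, Nap1l4 fell (−0.23 and −0.20). Osbpl5 rose (1.04 and 0.57), but subtracting the median fibroblast share ended both calls. Of 6 trophoblast markers, which include Ascl2, 4 passed the filter, with 1 higher and 2 lower in 3F+IL6 and 2 higher and 1 lower in 4F clones against ES cells. Their sum was 24.8 and 15.6 RPKM in 3F+IL6, 29 and 27.3 in 4F and 14.9 and 15.9 in ES cells. Tfap2c was at 9.11 and 9.31 RPKM in ES cells, 12.9 and 6.92 in 3F+IL6 and 16.1 and 15.4 in 4F clones. Eomes was at 2.7 and 3.51 in ES cells, 1.66 and 1.92 in 3F+IL6 and 1.35 and 1.3 in 4F. Hand1 was at 1.97 and 1.62 in ES cells, 1.14 and 0.258 in 3F+IL6 and 1.29 and 1.26 in 4F. Cdx2 was at 0.796 and 1.05 RPKM in ES cells and at 0 to 0.0692 in the clones, and Elf5 at 0 to 0.114 in both.

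Beside Peg10, the sarcoglycan gene Sgce shares the same control region and was not called in either kind of clone against ES cells (−0.32 and −0.42; limma adjusted p = 0.11 and 0.051). The 4F difference was called, as a fall, in 8 of the 19 alternatives, among them the replicate block, and the 3F+IL6 difference in 2. Pdk4, a kinase gene that restrains pyruvate entry, was in contrast at 0.765 and 0.766 RPKM in ES cells and 7.77 to 9.05 in the clones (2.35 and 2.49). Copg2, which overlaps Mest, was not called in either (−0.13 and 0.03).

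**Figure D4:**
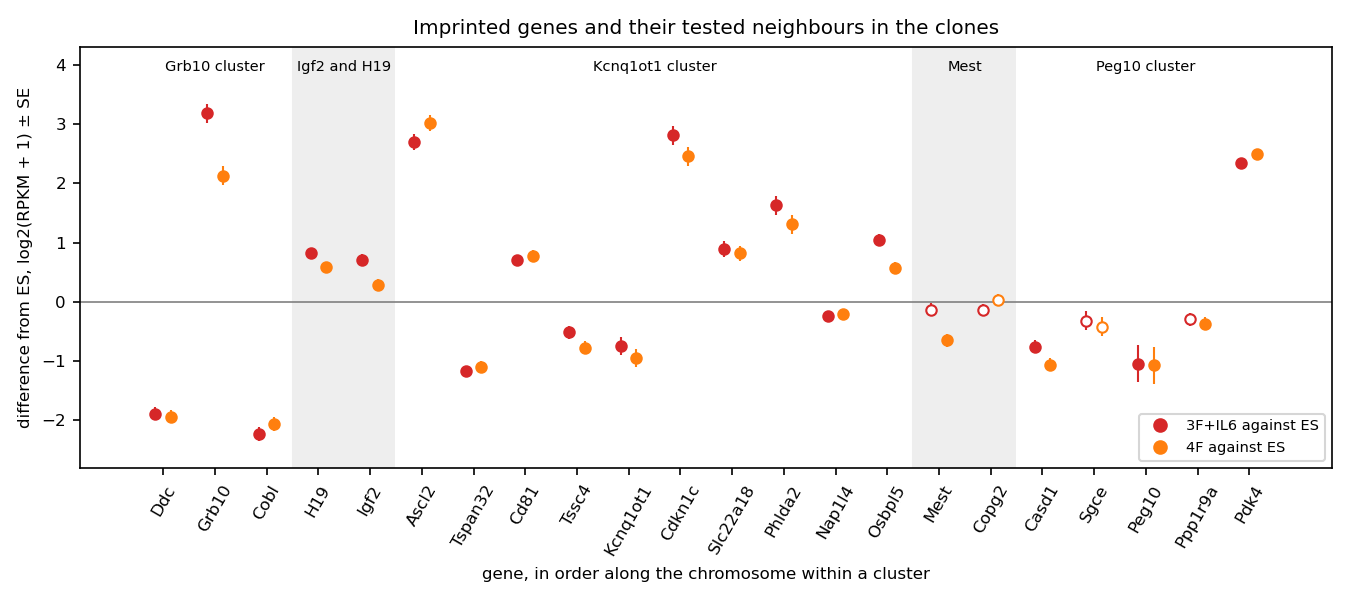
Difference from ES cells in log2(RPKM + 1) with its SE (vertical axis) for members and their tested neighbours, for 3F+IL6 (red) and 4F clones (orange). Genes are in chromosomal order within each cluster (horizontal axis), and Igf2r, Peg3 and Plagl1 are not drawn. Open points did not pass an adjusted p of 0.05. Ddc and Cobl lie near −2 on either side of Grb10. In the Kcnq1ot1 cluster Ascl2, Cd81, Cdkn1c, Slc22a18, Phlda2 and Osbpl5 lie above 0, and Tspan32, Tssc4, Kcnq1ot1 and Nap1l4 below.

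The IGF axis, which Igf2, Igf2r and Grb10 feed into, was taken as 20 further genes, of which 19 passed the filter. Against ES cells 12 were higher and 3 lower in 3F+IL6, and 11 higher and 4 lower in 4F clones, with median differences of 0.64 and 0.39 (all genes: 33.1% higher and 30.3% lower in 3F+IL6, 33.7% and 33.5% in 4F; medians 0.01 and 0.00). With the median fibroblast share subtracted they gave 8 higher and 7 lower, and 6 higher and 7 lower. Over all 13200 genes tested that step gave 3394 higher and 5203 lower, and 3672 higher and 5257 lower. Several genes of the axis encode secreted IGF-binding proteins, which hold IGFs away from their receptors. Igfbp2 was at 110 and 113 RPKM in ES cells, 573 and 366 in 3F+IL6, 554 and 450 in 4F, and 17.1 and 18 in MEF, so it was highest in the clones (2.03 and 2.16 against ES cells). Igfbp4 was at 2.54 and 2.32 in ES cells, 65.1 and 50.3 in 3F+IL6, 49.5 and 42 in 4F and 34.1 and 36.5 in MEF, and rose by 4.09 and 3.77. Igfbp3 rose by 1.91 and 1.11 and was at 8.42 and 9.15 RPKM in MEF, below every clone. Igfbp5 was called as well (1.51 and 0.75), but was at 56.5 and 55.6 RPKM in MEF and 0.751 to 3.01 in the clones, and subtracting either fibroblast share ended both calls. The insulin receptor gene Insr rose (0.98 and 1.06), from 1.04 and 1.00 RPKM to 2.9 to 3.28, while the IGF1 receptor gene Igf1r, at 1.97 to 2.65 RPKM in all ES and iPS libraries and 13.7 and 13.9 in MEF, was not called (0.18 and 0.13). Of the adaptors related to Grb10, Grb7 rose (1.26 and 0.76) and was at or under 0.136 RPKM in MEF. Grb14 was called (1.45 and 1.50), but not with the median fibroblast share subtracted, and was at 58.4 and 61.1 RPKM in MEF. Between the kinds of clone limma called 0 of the 19, and 0 to 2 under the alternatives that kept every library. Of the 19, 8 had an unadjusted p under 0.05, where 24.2% of all genes had. Calls rose without 3F+IL6 clone 1, as they did over all genes.

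**Figure D5:**
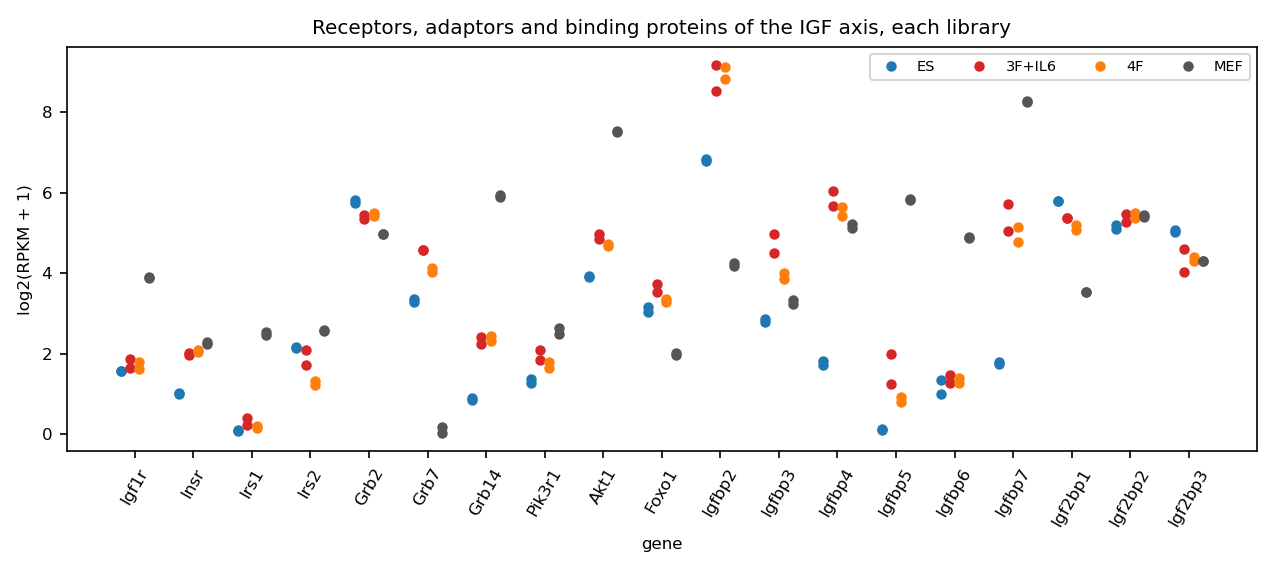
Level in log2(RPKM + 1) (vertical axis) of the 19 tested genes of the IGF axis (horizontal axis) in each of the 8 libraries, coloured by group. Igfbp2, Igfbp3, Igfbp4 and Grb7 are highest in the clones, and Igf1r, Grb14, Akt1, Igfbp5, Igfbp6 and Igfbp7 in MEF.

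Cdkn1c was set beside 6 other cyclin-dependent kinase inhibitor genes, which are not imprinted. Against ES cells 4 were higher and 0 lower in 3F+IL6, and 5 higher and 0 lower in 4F clones, beside 33.1% and 33.7% of all genes called higher and 63.4% and 67.2% called either way. The 4F count was 3 with the median fibroblast share subtracted and without any single ES or 4F library. Cdkn1a, the gene of p21, was at 10.6 and 10.5 RPKM in ES cells, 65.3 and 60.7 in 3F+IL6, 82.5 and 72.5 in 4F and 208 in each MEF library (2.47 and 2.76). Cdkn2b rose by 2.77 and 2.30. Both were highest in MEF. Cdkn2a, the gene of p16 and p19Arf, was higher in the clones than in both references, as Cdkn1c was in 3F+IL6: it was at 11.7 and 12.2 RPKM in ES cells, 32.9 and 40.7 in 3F+IL6, 44.9 and 39 in 4F and 18.9 and 21.2 in MEF (1.54 and 1.73 against ES cells, 0.84 and 1.03 against MEF).

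Of 10 proteins that keep or read imprints, 9 passed the filter. Against ES cells 3 were higher and 5 lower in each kind of clone, beside 33.1% and 33.7% of all genes called higher and 30.3% and 33.5% called lower. Zfp57, the zinc finger protein that binds methylated control regions, was at 137 in each ES library, 44.1 and 61.4 in 3F+IL6, 40.4 and 59.9 in 4F and 16.4 and 15.3 RPKM in MEF (−1.38 and −1.46 against ES cells). Trim28, its co-repressor, fell by 0.36 and 0.63 on the log2 scale. Dppa3, which protects maternal marks in the early embryo, was at 0.724 and 0.845 RPKM in ES cells, 12.8 to 15.5 in the clones and at most 0.0711 in MEF (3.06 and 3.10). Methylation was not measured in these libraries. Of 32 imprinted genes in other clusters, 27 passed the filter, and 14 were higher and 6 lower in 3F+IL6 and 10 higher and 4 lower in 4F clones against ES cells. All genes were called at 63.4% and 67.2%, so 14 of 27 in 4F is below the background. With the median fibroblast share subtracted the list gave 9 higher and 11 lower, and 7 higher and 11 lower. Over all 13200 genes tested that step gave 3394 higher and 5203 lower, and 3672 higher and 5257 lower. Gnas, a G protein subunit gene, rose by 1.14 and 0.77, and Impact and Zdbf2 fell, Impact by 1.76 and 1.66 and Zdbf2 by 1.58 and 1.87. Snurf was called higher (5.48 and 5.25), at 0 in both ES libraries and 36.8 to 44.2 RPKM in the clones. Snrpn, of the same imprinted domain, was at 34.5 and 35.1 in ES cells and 34.9 to 41.9 in the clones. In MEF Snurf was at 4.16 and 4.18 RPKM and Snrpn at 3.95 and 3.97. Outside ES cells the 2 genes thus had close levels in every library. Whether reads of the 2 genes were assigned differently in ES cells was not tested. Between the kinds of clone limma called 0 of these 27, and 0 to 2 under the alternatives that kept every library. Of the 27, 8 had an unadjusted p under 0.05, where 24.2% of all genes had. Calls rose without 3F+IL6 clone 1, as they did over all genes.

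Over the 8 libraries, the genes whose pattern was most like that of each member were ranked by Pearson correlation of log2(RPKM + 1). Other members, and symbols that start with Gm and a digit or end in Rik, were left out of the ranking and of the counts below. The libraries fall in 4 groups, so many genes reach high values: 447 genes exceeded 0.99 for Igf2, 256 for Phlda2, 252 for H19, 53 for Grb10 and for Mest, 17 for Plagl1, and 0 for Igf2r. For Grb10 the 3 nearest were Mapre2 (0.9980), Timp2 (0.9978) and Lrig1 (0.9975). Timp2, a metalloproteinase inhibitor gene, was at 3.47 and 3.62 RPKM in ES cells, 36.8 and 60.2 in 3F+IL6, 26.8 and 25.5 in 4F and 229 and 226 in MEF. For Cdkn1c they were Triobp (0.9955), Nfatc4 (0.9948) and Cbl (0.9943), and for Plagl1 Aebp2 (0.9952), Wsb1 (0.9948) and Asah1 (0.9945). Wsb1 was at 66.6 and 63 RPKM in ES cells, 66.4 and 67.3 in MEF and 11.1 to 18 in the clones. For Igf2 the nearest were Slc39a13, Rhobtb3 and Kcnq5 (0.9997, 0.9996 and 0.9996), for H19 Creb3l1, Tpm2 and Vasn, for Phlda2 Sae1, Kpna2 and Actl6a, and for Peg3 Lgals9, Mid1ip1 and Ccdc6. For Mest they were U2af2, Phf10 and Glul, for Peg10 Prph, Rab26 and Abhd10, and for Igf2r BC018242, Tgm4 and Gaa (0.9868, 0.9866 and 0.9855). Kcnq5 was near the floor outside MEF, at 0.0281 to 0.167 RPKM in the ES and iPS libraries.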

How the data were processed

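Poly-A RNA of 8 cultures was sequenced as 50 bp reads and aligned to mm10, per the labels and the series' design text. Which aligner, counter and gene models were used, and whether strand was, is not given in the sources used here. The authors deposited 1 value per gene symbol for each library, under headers that name no unit. These deposited numbers behave as RPKM: times the transcript length, low values fall on multiples of 1 step per library, from which depth was estimated. Since 53.2% to 60.2% of low values came within 0.1 of a whole read, counts could not be recovered. From every file, 1 row that named no gene was dropped.

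Genes at 1 RPKM or more in at least 2 libraries were kept. limma 3.58.1 in R 4.3.3 fitted log2(RPKM + 1) of all 8 libraries with trended variance and no block, and Benjamini-Hochberg adjustment ran over 13200 genes. The fit was tested on simulated data. The median SE was 0.102 (6.94 degrees of freedom). The members, lists and tests were chosen with earlier results of these data known. By rule, all members, any gene of the fixed lists and markers, and the 3 nearest genes of each member could be named. Coordinates are those of GENCODE release M21 on mm10. Alternatives were 18 planned settings (pseudocount, filters, scaling, samples fitted, weights, replicate block, trend, fibroblast share subtracted, each library left out) and 1 chosen after seeing the data (lowest marker share).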

Additional observations from a re-analysis of the deposited data

How the results depend on the processing

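Across the 6 comparisons, 1064 of 1134 member values under the 19 alternatives kept their direction and their side of the threshold, 10 that were not called changed sign or came to about 0, 39 lost a call, 16 gained one and 5 reversed. Reversals were Igf2 (−2.78) in 3F+IL6 and in 4F clones and H19 (−0.06) in 4F clones against ES cells with the median fibroblast share subtracted, which left Igf2 at 0 in the clones by construction, Igf2 in 4F clones (−0.30) with the lowest share, and Peg10 between the kinds of clone without 3F+IL6 clone 1 (−0.54; 0.59 and called without clone 2). The cause was not tested. Total counts of calls moved by more than 1.5 times only between the 2 kinds of clone. Counts in 1 direction moved that far elsewhere too: members higher in 4F against ES cells went from 7 to 4 with the fibroblast share subtracted, and with a mean of at least 5 RPKM genes higher than in ES cells went from 4371 to 2747 in 3F+IL6 and from 4442 to 2879 in 4F, of 8691 tested. Its 177 called genes became 56 with a pseudocount of 0.1, 315 with quantile normalization, 12 in a fit limited to the 4 clones, 5 with array weights and 36 with the replicate block. Its 1 called member became 0 with a pseudocount of 0.1, no filter, the 4 clones alone, array weights or the replicate block; the cause was not tested. Without single libraries the counts ran from 6 to 4802 genes and 0 to 5 members there. Elsewhere members called ran from 7 to 9 (3F+IL6 against ES), 7 to 10 (4F against ES and 4F against MEF) and stayed at 9 (3F+IL6 or ES against MEF). Same-numbered libraries share only a number: the correlations of their deviations ran from −0.06 to 0.21. The replicate block changed 3 of 60 member calls: it ended those of Grb10 between the kinds of clone and of Igf2 in 4F against ES cells, and gave one to Cdkn1c in 4F against MEF (0.39). With 2 libraries a group, the spread between the 3F+IL6 clones gave Peg10 the widest SE of the members (0.31), and depth limits Plagl1 in the clones and Cdkn1c in ES cells.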
